A study of Homo sapiens with 9 samples.

Results

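The genes described here encode the collagens, the laminin chains and a set of large glycoproteins and proteoglycans of the extracellular matrix, measured in definitive endoderm made from human embryonic stem cells. Every row of the count table was taken whose symbol names a collagen chain or a laminin chain, together with TNC, FN1, SPARC, NID1, NID2, VCAN, HSPG2, FBN1, FBN2, FBLN1, FBLN2, LUM, THBS1 and AGRN, and antisense genes were left out. This gave 69 of the 26240 genes, made up of 44 collagen genes, 11 laminin genes and 14 others. DCN and LAMB4 were not analysed here. RNA was sequenced from definitive endoderm derived from H9, an established human embryonic stem cell line grown in mTeSR Plus medium on Matrigel, with CHD7 deleted by CRISPR/Cas9 in the mutants. CHD7 is the gene of an ATP-dependent chromatin remodeller. The groups were homozygous mutant cells (CHD7-/-), heterozygous mutant cells (CHD7+/-) and wild-type cells (CHD7+/+), with 3 libraries each, and the question was how their gene expression differed. The labels name no clones, cultures or days, so that p-values measure only how far these libraries spread, and that spread may be technical.

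Matrix proteins are secreted and assembled outside the cell. Fibrillar collagens form cables, network collagens and laminins form the sheet of the basement membrane on which epithelia such as endoderm sit, nidogens and heparan sulfate proteoglycans link its layers, and adhesive glycoproteins such as fibronectin connect the matrix to integrins on the cell. Collagen molecules are built from α chains and laminins from an α, a β and a γ chain, so that a molecule can need the products of several genes.

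Promoters of some of the genes are shown first. The change of TNC, the rises of HSPG2 and COL9A2 and the ratio of COL4A1 to COL4A2 are described below. Each is the run of 250 bases before the RefSeq transcription start, on the strand of the gene (GRCh38.p14), except that for COL4A1 and COL4A2, which point away from each other, the whole interval of 126 bases between both starts is given on the plus strand. Capitals mark motifs that were searched for by their letters on both strands. The TATA box was searched for by the letters TATANA. Those of the CCAAT box are its name. For the GC box they were GGGCGG. RefSeq promoter windows were matched to 52 of the 69 genes, and COL1A1, COL1A2, COL2A1, COL9A3 and LAMC3 were not among them. The printed runs lie at chr9:115118158-115118407 (TNC, minus strand), chr1:21937311-21937560 (HSPG2, minus strand), chr1:40317287-40317536 (COL9A2, minus strand) and chr13:110307158-110307283 (COL4A1 and COL4A2). In the GENCODE annotation, whose bounds differ from those of RefSeq, COL9A2 reaches chr1:40317813, so its run lies within the gene. TNC reaches chr9:115118257 there, so part of its run does.
TNC: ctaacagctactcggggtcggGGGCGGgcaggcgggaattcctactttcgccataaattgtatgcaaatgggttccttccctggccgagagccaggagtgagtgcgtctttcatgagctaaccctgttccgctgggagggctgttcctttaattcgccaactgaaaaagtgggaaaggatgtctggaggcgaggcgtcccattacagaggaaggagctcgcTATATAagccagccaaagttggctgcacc
HSPG2: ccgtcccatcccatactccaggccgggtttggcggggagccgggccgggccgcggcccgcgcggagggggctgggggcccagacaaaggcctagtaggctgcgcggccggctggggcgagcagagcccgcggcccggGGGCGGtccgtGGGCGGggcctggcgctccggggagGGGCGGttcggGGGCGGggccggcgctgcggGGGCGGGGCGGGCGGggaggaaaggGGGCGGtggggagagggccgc
COL9A2: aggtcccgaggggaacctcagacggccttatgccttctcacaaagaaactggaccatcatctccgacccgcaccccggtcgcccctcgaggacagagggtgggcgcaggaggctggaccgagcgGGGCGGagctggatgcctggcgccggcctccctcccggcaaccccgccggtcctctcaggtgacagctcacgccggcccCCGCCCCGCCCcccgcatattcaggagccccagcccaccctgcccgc
COL4A1 and COL4A2: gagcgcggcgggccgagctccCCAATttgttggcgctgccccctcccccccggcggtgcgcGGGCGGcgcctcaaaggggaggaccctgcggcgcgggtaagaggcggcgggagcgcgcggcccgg

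The TNC promoter held a TATA box that began 29 bases before the start, and 1 GC box. The HSPG2 promoter held 8 GC boxes, 3 of which run into each other, and no TATA or CCAAT box, and 82.8% of its bases were G or C. COL9A2 had 3 GC boxes, of which 2 overlap, and the interval between COL4A1 and COL4A2 had 1 CCAAT box and 1 GC box. Over all 35116 promoter windows of 250 bases, 17.7% held the TATA box letters, 32.0% those of the CCAAT box and 42.6% those of the GC box. These are matches of letters and say nothing of factors bound there.

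The libraries held 11854173 to 37519729 counts, the shallowest being homozygous replicate 1. CHD7 itself averaged 51.5 ± 7.40 CPM (the read count scaled to library size) in homozygous, 123 ± 11.2 CPM in heterozygous and 193 ± 3.29 CPM in wild-type cells (SD, n = 3 each), which follows the labels, although reads from outside the deleted part cannot be told from others. All 12 definitive endoderm markers passed the filter on low counts, and their summed level was 8046 to 9141 CPM in homozygous, 9856 to 10859 CPM in heterozygous and 11687 to 12521 CPM in wild-type libraries. CER1 alone averaged 4626 CPM in homozygous, 6119 CPM in heterozygous and 7239 CPM in wild-type cells and so made up most of that sum and of its difference. FOXA2, CER1, HHEX and MIXL1 were lower in homozygous than in wild-type cells (edgeR adjusted p = 0.00192 to 0.0124), and the other 8, among them SOX17, CXCR4 and GATA6, were not called. Over all genes tested 7.68% were called in that comparison (3.5% rose and 4.18% fell), which stands beside all marker calls below. The shares called were 1.86% in heterozygous against wild-type cells and 2.21% in homozygous against heterozygous cells. Of 9 markers of mesenchyme and fibroblasts, TWIST2, ACTA2 and POSTN were under 0.5 CPM in every library, and the summed level of the list was 400.2 to 527 CPM in homozygous, 355 to 438 CPM in heterozygous and 479 to 769.6 CPM in wild-type libraries. TAGLN alone averaged 414 CPM in homozygous, 337 CPM in heterozygous and 600 CPM in wild-type cells and so made up most of that sum. It was lower in heterozygous than in wild-type cells (log2 fold change -0.83, edgeR adjusted p = 0.0326). In homozygous cells TAGLN was not called (-0.53, edgeR adjusted p = 0.0853). Of the low genes in that list, TWIST1 was lower in homozygous than in wild-type cells (log2 fold change -1.66, edgeR adjusted p = 0.0207), at 0.482 against 1.56 CPM. S100A4 was higher (1.40, edgeR adjusted p = 0.0175), at 3.62 against 1.36 CPM. Of 7 mesoderm markers 3 were tested and KDR was lower (-1.05, edgeR adjusted p = 0.00419), with a summed level of 20.8 to 34.7 CPM in homozygous, 32.6 to 41.5 CPM in heterozygous and 43.5 to 59.0 CPM in wild-type libraries, and MESP1, HAND1, MEOX1 and PAX3 under 0.5 CPM. Of 5 trophoblast and amnion markers 3 were tested, and GATA3 (1.36, edgeR adjusted p = 0.00233) and TFAP2C (1.23, edgeR adjusted p = 0.000216) were higher in homozygous than in wild-type cells, with a summed level of 23.5 to 31.1 CPM in homozygous, 13.4 to 13.9 CPM in heterozygous and 9.94 to 12.7 CPM in wild-type libraries, and TFAP2A and KRT7 under 0.5 CPM. Of 7 markers of extraembryonic and parietal endoderm 5 were tested, and HNF4A was higher (0.77, edgeR adjusted p = 0.000873), with a summed level of 46.6 to 51.3 CPM in homozygous, 29.8 to 31.8 CPM in heterozygous and 30.7 to 34.5 CPM in wild-type libraries, and SOX7 and AFP under 0.5 CPM. GATA3, TFAP2C and HNF4A were also higher in homozygous than in heterozygous cells (edgeR adjusted p = 0.00144 to 0.00597), as were HSPG2 and COL13A1 among the matrix genes. The 6 markers of pluripotent cells summed to 2281 to 2383 CPM in homozygous, 2203 to 2536 CPM in heterozygous and 2508 to 2658 CPM in wild-type libraries. LIN28A alone averaged 1999 CPM in homozygous, 1966 CPM in heterozygous and 2310 CPM in wild-type cells and so made up most of that sum. Every heterozygous library lay above every wild-type library for POU5F1, DPPA4 and ZFP42, and below for LIN28A. Such a separation was found for 22.2% of all genes tested. None of the 6 was called against wild type in either mutant. NANOG was lower in homozygous than in heterozygous cells (edgeR adjusted p = 0.0401). Fewer cells of a type and less RNA per cell cannot be told apart in such bulk libraries, and the part of other cell types in the results was not tested.

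The matrix genes took 0.921% to 1.08% of all counts of a library. Their share averaged 1.01% ± 0.0776 in homozygous, 0.984% ± 0.0700 in heterozygous and 1.02% ± 0.0197 in wild-type cells (SD, n = 3 each), so the total differed between genotypes by less than the spread between libraries. 7 genes made up 50.9% of it, namely COL6A1, FN1, SPARC, COL4A1, FBLN1, COL5A2 and COL18A1. Of the 69 genes, 57 passed the filter on low counts. The 12 that did not were COL3A1, COL6A5, COL6A6, COL8A1, COL8A2, COL10A1, COL15A1, COL19A1, COL21A1, COL28A1, LAMB3 and LUM, with at most 17 counts in any library. COL10A1 had 0 counts in all 9, and COL3A1 and LUM, major collagen and proteoglycan genes of fibroblasts, had 8 and 18 counts over all 9.

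Per length of their exons, the highest genes in wild-type cells were COL6A1 at 172 RPKM (CPM per kilobase of exon), SPARC at 161 RPKM, COL5A2 at 96.6 RPKM and FBLN1 at 84.4 RPKM. SPARC encodes a collagen-binding glycoprotein, and COL6A1 a chain of the beaded filaments of type VI collagen. Among laminin chains the order in wild-type cells was LAMB1 (21.5 RPKM), LAMB2 (17.0 RPKM), LAMA5 (12.6 RPKM), LAMC1 (11.7 RPKM), LAMA1 (9.66 RPKM) and LAMC3 (9.24 RPKM), and LAMA5 and LAMC1, like LAMA1 and LAMC3, did not differ beyond the spread of their libraries. The laminin RNAs were thus mainly those of the α chains LAMA1 and LAMA5, the β chains LAMB1 and LAMB2 and the γ chains LAMC1 and LAMC3, as the plot of levels per length shows for every gene at 1 RPKM or more.

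**Figure D1:**
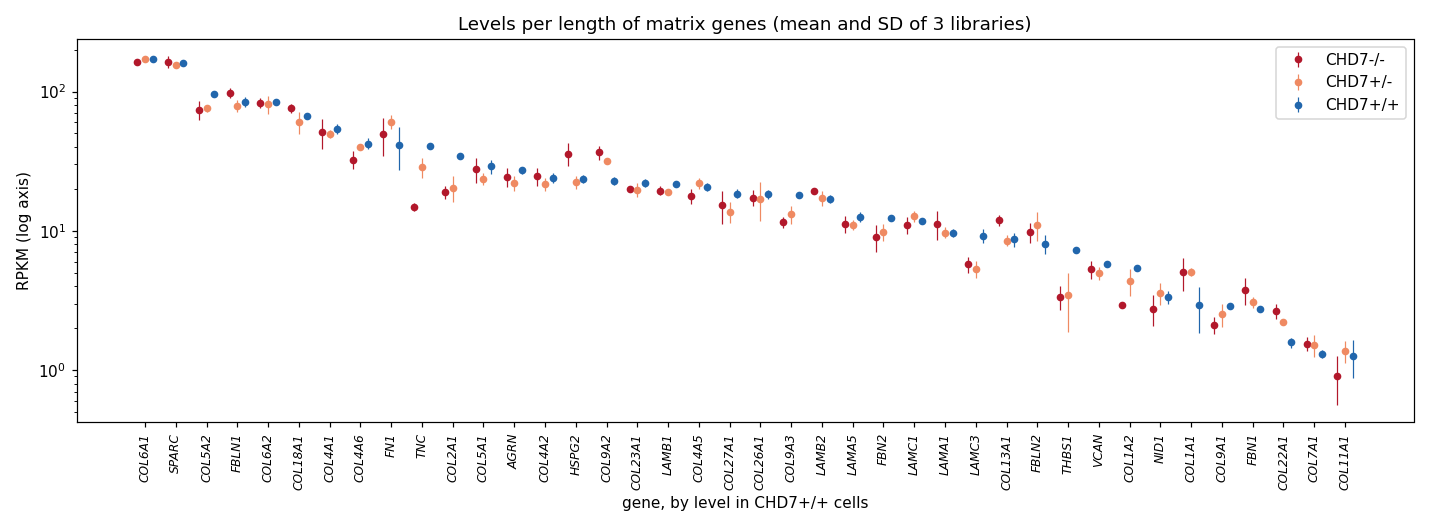
Level per exon length (RPKM, log axis) of the matrix genes with at least 1 RPKM in wild-type cells, ordered by that level; points are means and bars SDs of 3 libraries of CHD7-/-, CHD7+/- and CHD7+/+ cells. COL6A1 and SPARC stand highest at 172 and 161 RPKM in wild-type cells, and TNC shows the widest gap between the genotypes, 14.9 RPKM in homozygous, 28.5 RPKM in heterozygous and 40.5 RPKM in wild-type cells.

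Between homozygous and wild-type cells 15 of the 57 matrix genes were called at an edgeR adjusted p below 0.05 over all 16837 genes tested, and 5 of these rose and 10 fell. That is 26.3% of them, where 7.68% of all genes tested were called (3.5% rose and 4.18% fell). The rises were HSPG2, NID2, COL9A2, COL22A1 and COL13A1, and the falls TNC, THBS1, COL1A2, COL2A1, COL5A2, COL9A3, COL4A6, LAMA2, LAMA4 and LAMC3. The median log2 fold change of the 57 was -0.08, against 0.01 over all genes tested. In 9 of the 57 every homozygous library lay above every wild-type library and in 16 every one lay below, against 13.2% and 15.7% of all genes tested (28.9% in all). The same separation of libraries was found for 22.2% of all genes between heterozygous and wild-type cells and for 19.5% between homozygous and heterozygous cells, and applies wherever libraries are said not to overlap below. With upper quartile scaling 7 matrix genes rose and 9 fell, and over all genes 712 rose and 607 fell. Without wild-type replicate 2, 9 were called, and 651 over all genes.

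**Figure D2:**
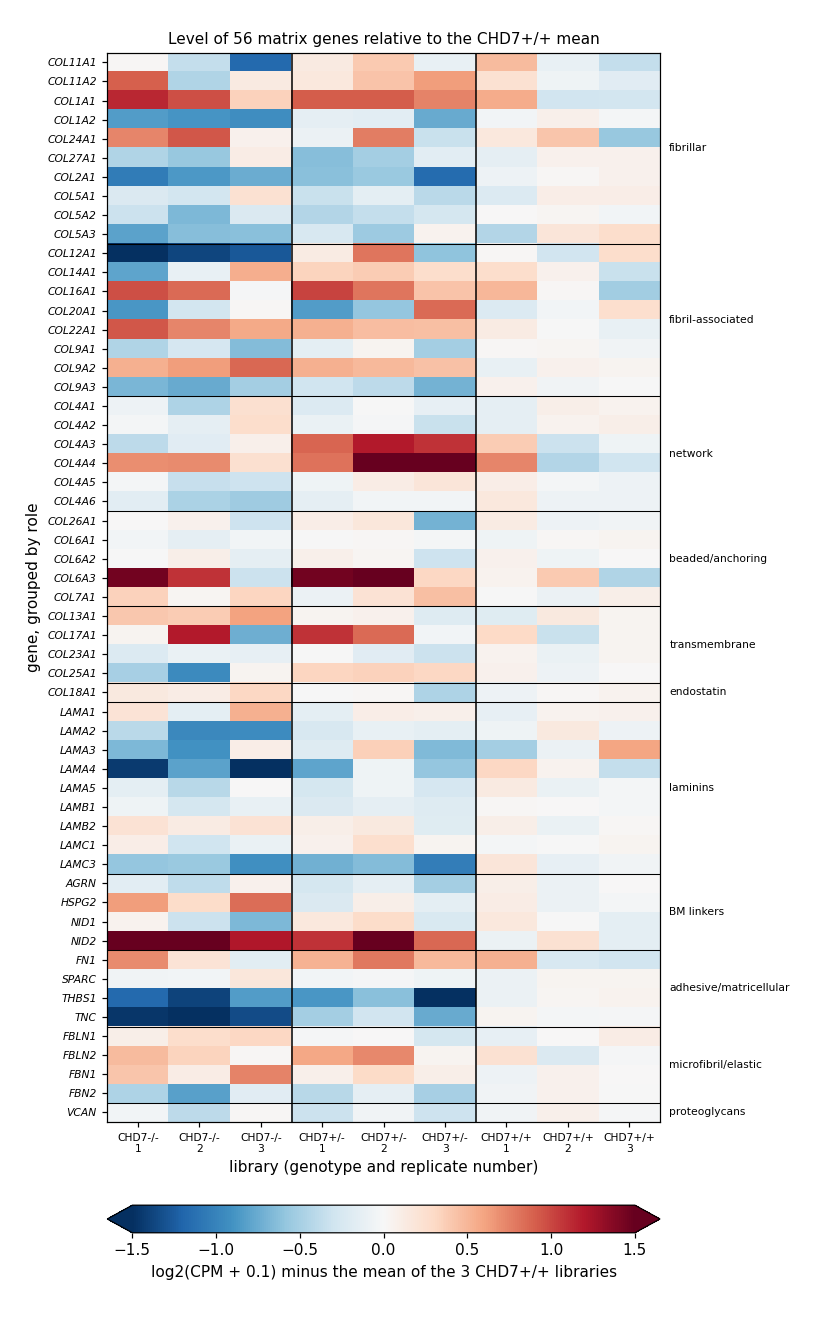
Level of 56 of the 57 matrix genes tested in each library, as log2 of CPM plus 0.1 minus the mean of the 3 wild-type libraries (colour, red higher and blue lower), with genes in rows by role and libraries in columns by genotype. TNC and COL12A1 are blue across all 3 homozygous libraries, while FN1 and COL1A1 differ between libraries of the same genotype.

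Among the adhesive and matricellular glycoproteins, TNC fell most. It encodes tenascin-C, a matrix glycoprotein made during development and wound repair that modulates cell adhesion (ENSG00000041982, chr9:115019578-115118257 on hg38). TNC had 142, 134 and 154 CPM in homozygous libraries, 273, 321 and 232 CPM in heterozygous libraries and 401, 383 and 385 CPM in wild-type libraries. The 3 genotypes did not overlap, and the heterozygous libraries lay between the others. Its log2 fold change was -1.44 (SE 0.11, edgeR adjusted p = 5.30e-06) for homozygous over wild-type cells, and -0.94 (SE 0.11, edgeR adjusted p = 0.000344) in homozygous against heterozygous cells. Both calls held with each library left out in turn. In heterozygous against wild-type cells TNC also fell (-0.50, SE 0.11, edgeR adjusted p = 0.0318). That call was lost when any 1 of 6 libraries was left out, the 3 wild-type ones, heterozygous replicates 1 and 3 and homozygous replicate 1, at adjusted p = 0.0521 to 0.126.

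The gene body of TNC lies wholly within DELEC1, a gene on the opposite strand, and the sources used here do not give the strand setting of the counting. DELEC1 had 1.99 to 2.51 CPM in homozygous, 3.26 to 5.29 CPM in heterozygous and 6.22 to 8.36 CPM in wild-type libraries, and fell in homozygous against wild-type cells (log2 fold change -1.67, SE 0.22, edgeR adjusted p = 0.000447). Counts of DELEC1 were few beside those of TNC. Reads of both genes may not be separated, and the part of this in the level of TNC was not tested.

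THBS1 encodes thrombospondin-1, an adhesive glycoprotein that also binds TGF-β. It had 29.5, 25.4 and 37.3 CPM in homozygous libraries, 36.2, 43.1 and 15.6 CPM in heterozygous libraries and 62.7, 67.8 and 69.0 CPM in wild-type libraries. All mutant libraries lay below the wild-type ones, and heterozygous replicate 3 was the lowest of all. THBS1 fell in homozygous cells (log2 fold change -1.12, SE 0.27, edgeR adjusted p = 0.0230), a call that was lost without wild-type replicate 2 or 3 or homozygous replicate 1 or 2 (adjusted p = 0.0727 to 0.0882). In heterozygous cells its log2 fold change of -1.07 missed the threshold (SE 0.26, edgeR adjusted p = 0.0674). SPARC stood at 792 ± 73.3 CPM in homozygous and 778 ± 40.8 CPM in wild-type cells (SD, n = 3 each), a log2 difference of 0.03 with an SE of 0.08.

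FN1, the fibronectin gene, had the second largest share of matrix counts and varied widely within a genotype. It had 1134, 801 and 622 CPM in homozygous, 999, 1195 and 967 CPM in heterozygous and 1005, 585 and 566 CPM in wild-type libraries. Wild-type replicate 1 stood far above the other 2, and FN1 was called in no comparison (edgeR adjusted p = 0.311 to 0.547). The pluripotency gene POU5F1, with 122, 114 and 33.4 CPM in homozygous, 193, 168 and 116 CPM in heterozygous and 95.2, 56.0 and 57.3 CPM in wild-type libraries, was likewise highest within the wild type in replicate 1 and lowest within the homozygous cells in replicate 3. NANOG, SOX2 and ZFP42 shared both traits and DPPA4 neither. LIN28A, the most abundant of the pluripotency markers, went the other way. It had 2011, 1967 and 2019 CPM in homozygous and 2172, 2374 and 2385 CPM in wild-type libraries. The part of pluripotent cells in the level of FN1 was not tested. FN1 was chosen here after its values were seen.

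Of the basement membrane linkers HSPG2 and NID2 rose in homozygous cells. HSPG2 encodes perlecan, a large heparan sulfate proteoglycan that binds laminin and type IV collagen (chr1:21822245-21937297). It had 664, 518 and 766 CPM in homozygous, 369, 455 and 389 CPM in heterozygous and 462, 404 and 420.3 CPM in wild-type libraries. Every homozygous library lay above every other, while heterozygous and wild-type libraries overlapped. Its log2 fold change was 0.60 against wild-type cells (SE 0.13, edgeR adjusted p = 0.0127) and 0.68 against heterozygous cells (SE 0.13, edgeR adjusted p = 0.0161). The call against wild type was lost without wild-type replicate 2 or 3 (adjusted p = 0.0611 to 0.0685), and that against heterozygous cells without heterozygous replicate 1 or 3 (adjusted p = 0.0551 to 0.0566). AGRN, the gene of the related proteoglycan agrin, had 263 ± 39.9 CPM in homozygous and 292 ± 17.5 CPM in wild-type cells and was called in no comparison.

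NID2 encodes a nidogen that joins laminin to type IV collagen, and it was close to the limit of detection. It had 2.17, 1.39 and 0.996 CPM in homozygous, 0.911, 1.39 and 0.762 CPM in heterozygous and 0.348, 0.459 and 0.332 CPM in wild-type libraries, and rose in homozygous cells relative to the wild type (log2 fold change 1.93, SE 0.38, edgeR adjusted p = 0.00747). Mutant libraries all lay above wild-type ones. The gene overlaps RTRAF on the opposite strand over 5889 bases, and RTRAF, at 144 to 180.3 CPM in homozygous and 138 to 149 CPM in wild-type libraries, was not called, so the count of NID2 is uncertain. With all libraries thinned to the depth of the shallowest, NID2 was not called (adjusted p = 0.124). Its paralog NID1 stood at 16.1 ± 4.05 CPM in homozygous and 19.7 ± 2.11 CPM in wild-type cells and was not called (SD, n = 3 each).

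None of the 10 fibrillar collagens tested rose and 3 fell in homozygous cells. COL1A2 and COL1A1 encode the α chains of type I collagen, the main collagen of connective tissue. COL1A2 (ENSG00000164692, chr7:94394561-94431232) had 34.0, 32.8 and 31.8 CPM in homozygous, 55.4, 54.4 and 36.1 CPM in heterozygous and 58.8, 63.8 and 59.7 CPM in wild-type libraries. The genotypes did not overlap, though heterozygous replicate 3 came close to the homozygous libraries. It fell in homozygous relative to wild-type cells (log2 fold change -0.89, SE 0.14, edgeR adjusted p = 0.00155), also with each library left out in turn. Against heterozygous cells the log2 fold change was -0.57 (SE 0.14, edgeR adjusted p = 0.0532).

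COL1A1 was not called, with 60.4, 53.8 and 34.9 CPM in homozygous, 51.5, 51.7 and 46.1 CPM in heterozygous and 40.6, 22.5 and 22.7 CPM in wild-type libraries. Homozygous and wild-type libraries overlapped, with homozygous replicate 3 below wild-type replicate 1. The log2 fold change of 0.79 missed the threshold (SE 0.23, edgeR adjusted p = 0.0530). Homozygous replicate 3 and wild-type replicate 1 also stood apart in POU5F1, as given above for FN1, while LIN28A went the other way. The part of pluripotent cells in COL1A1 was not tested. COL1A1 was chosen here after its values were seen.

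COL2A1, the gene of type II collagen, which builds cartilage and is also made by early epithelia and the notochord, had 112, 127 and 138 CPM in homozygous, 149, 156 and 104 CPM in heterozygous and 218, 234 and 241 CPM in wild-type libraries. It fell in both mutants, with log2 fold changes against wild type of -0.88 in homozygous cells (SE 0.14, edgeR adjusted p = 0.00155) and -0.76 in heterozygous cells (SE 0.13, edgeR adjusted p = 0.0111). The mutant genotypes overlapped each other and stood apart from the wild type. The heterozygous call was lost without wild-type replicate 2 or 3 (adjusted p = 0.0532 to 0.0635). COL5A2, a chain of type V collagen and the highest fibrillar collagen per length, had 575, 452 and 618 CPM in homozygous, 530.4, 563 and 599 CPM in heterozygous and 725, 737 and 698 CPM in wild-type libraries. Its fall in homozygous cells was small (log2 fold change -0.39, SE 0.10, edgeR adjusted p = 0.0379). It was lost when any 1 of 6 libraries was left out, the 3 wild-type ones, heterozygous replicate 2 and homozygous replicates 1 and 2 (adjusted p = 0.0677 to 0.151). The remaining fibrillar genes tested, COL5A1, COL5A3, COL11A1, COL11A2, COL24A1 and COL27A1, were not called.

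The fibril-associated collagens, which decorate fibrils and do not form them alone, went both ways. Of the 8 tested, COL9A2 and COL22A1 rose and COL9A3 fell in homozygous cells. COL9A2, COL9A3 and COL9A1 encode the α chains of type IX collagen, which coats type II fibrils. COL9A2 (chr1:40300487-40317813) had 139, 149 and 175 CPM in homozygous, 139.6, 135 and 130.3 CPM in heterozygous and 89.4, 100.5 and 99.4 CPM in wild-type libraries. All mutant libraries lay above all wild-type ones. It rose in homozygous cells (log2 fold change 0.68, SE 0.09, edgeR adjusted p = 0.000654), also with each library left out in turn, and in heterozygous cells (0.48, SE 0.09, edgeR adjusted p = 0.0197). The heterozygous call was lost without each of the 3 wild-type libraries or heterozygous replicate 1 or 2 (adjusted p = 0.0659 to 0.0926).

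COL9A3 (chr20:62816244-62841159) had 54.1, 51.8 and 61.3 CPM in homozygous, 71.0, 66.5 and 53.3 CPM in heterozygous and 91.0, 83.9 and 87.3 CPM in wild-type libraries. It fell in homozygous cells (log2 fold change -0.65, SE 0.11, edgeR adjusted p = 0.00264), also with each library left out in turn, and just missed the threshold in heterozygous cells (-0.46, SE 0.11, edgeR adjusted p = 0.0539). The third chain gene, COL9A1, had 15.3 ± 2.12 CPM in homozygous and 20.8 ± 0.648 CPM in wild-type cells and was not called (log2 difference -0.44, SE 0.15, edgeR adjusted p = 0.0936). COL22A1, a collagen of tissue junctions such as that of muscle and tendon, had 23.5, 20.6 and 18.3 CPM in homozygous, 17.9, 17.0 and 16.9 CPM in heterozygous and 13.4, 12.3 and 11.4 CPM in wild-type libraries. Its genotypes did not overlap, and it rose in homozygous cells (log2 fold change 0.74, SE 0.12, edgeR adjusted p = 0.00195), also with each library left out in turn.

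COL12A1 had the largest fold change of the fibril-associated genes but few reads. It stood at 0.0835, 0.132 and 0.149 CPM in homozygous, 0.553, 0.949 and 0.296 CPM in heterozygous and 0.509, 0.393 and 0.622 CPM in wild-type libraries. Every homozygous library was below the others, and the gene missed the threshold (log2 fold change -1.94 against wild type, SE 0.57, edgeR adjusted p = 0.0575). COL12A1 was chosen here after its values were seen.

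**Figure D3:**
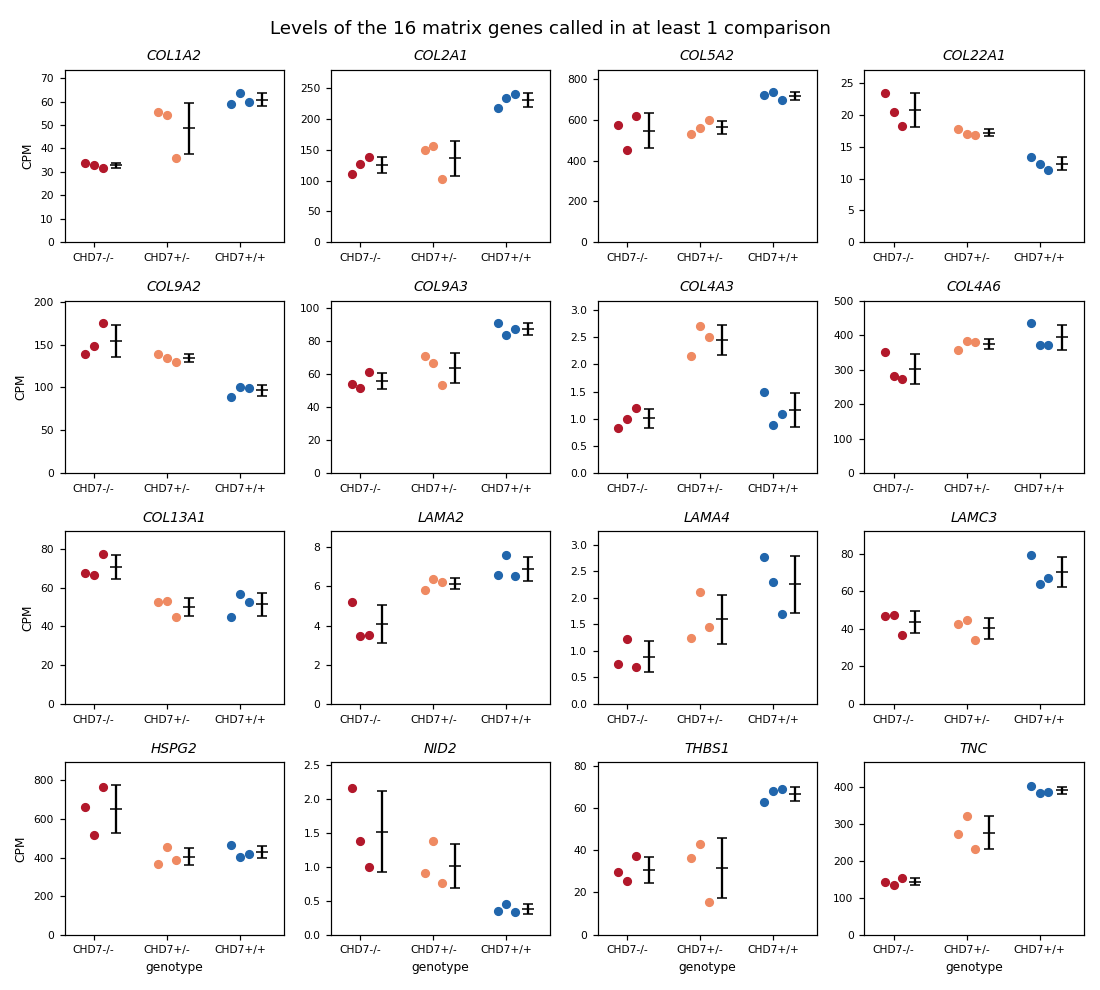
Level in CPM (linear axis from 0) of the 16 matrix genes called in at least 1 comparison, with a point per library by genotype and the mean and SD of 3 libraries as a bar. TNC shows homozygous libraries at 134 to 154 CPM, heterozygous ones at 232 to 321 CPM and wild-type ones at 383 to 401 CPM, and COL4A3 is highest in heterozygous cells.

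Of the 6 basement membrane and other network collagens tested, COL4A6 fell in homozygous cells and none rose. COL4A1 and COL4A2, which encode the chains of the common type IV collagen network, averaged 755 ± 182 and 476 ± 70.9 CPM in homozygous cells, and 793 ± 63.4 and 463 ± 37.8 CPM in wild-type cells (SD, n = 3 each), with log2 differences of -0.07 (SE 0.14) and 0.04 (SE 0.11). COL4A6, a chain of another type IV network, had 352, 282 and 272 CPM in homozygous, 356, 382 and 381 CPM in heterozygous and 436, 372 and 372 CPM in wild-type libraries. Its fall in homozygous against wild-type cells (log2 fold change -0.38, SE 0.10, edgeR adjusted p = 0.0420) was lost when any 1 of 6 libraries was left out, the 3 wild-type ones, heterozygous replicate 2 and homozygous replicates 2 and 3 (adjusted p = 0.0710 to 0.143). It was also lost with upper quartile scaling (adjusted p = 0.0659).

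COL4A3 and COL4A4, chains of the network found in kidney and lung membranes, were rare. COL4A3 had 0.835, 0.992 and 1.20 CPM in homozygous, 2.15, 2.70 and 2.499 CPM in heterozygous and 1.501, 0.885 and 1.08 CPM in wild-type libraries. The heterozygous libraries lay above all others, and COL4A3 was lower in homozygous than in heterozygous cells (log2 fold change -1.26, SE 0.27, edgeR adjusted p = 0.0317). That call was lost when any 1 of 6 libraries was left out, namely wild-type replicate 3, the 3 heterozygous ones and homozygous replicates 1 and 2 (adjusted p = 0.0543 to 0.132). Against wild type the heterozygous log2 difference of 1.07 missed the threshold (SE 0.25, edgeR adjusted p = 0.0554). The gene overlaps the antisense gene MFF-DT, which stood at 1.49 to 2.54 CPM in homozygous and 1.57 to 2.74 CPM in heterozygous libraries and was not called, so its count is uncertain. COL4A4, at 2.20 ± 0.399 CPM in homozygous, 3.91 ± 1.10 CPM in heterozygous and 1.57 ± 0.803 CPM in wild-type cells (SD, n = 3 each), was called in no comparison.

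None of the 5 beaded filament and anchoring collagens tested was called in homozygous cells by edgeR, DESeq2 or limma-voom, and 0 had an unadjusted p below 0.05. Among all 16837 genes tested 3906 had an unadjusted edgeR p below 0.05 against wild type. COL6A1, the most abundant matrix gene, stood at 872 ± 28.5 CPM in homozygous, 912 ± 16.1 CPM in heterozygous and 918 ± 33.2 CPM in wild-type cells (SD, n = 3 each). COL18A1, which encodes a basement membrane collagen whose end releases endostatin, had 646 ± 47.8 CPM in homozygous, 516 ± 91.1 CPM in heterozygous and 567 ± 25.8 CPM in wild-type cells and was not called. Of the transmembrane collagens, COL13A1, found at sites of cell adhesion, had 67.4, 66.4 and 77.5 CPM in homozygous, 52.4, 53.3 and 44.8 CPM in heterozygous and 44.9, 56.5 and 52.5 CPM in wild-type libraries. Homozygous libraries lay above all others. It rose against wild type (log2 fold change 0.46, SE 0.11, edgeR adjusted p = 0.0218) and against heterozygous cells (0.49, SE 0.11, edgeR adjusted p = 0.0373). The first call was lost without wild-type replicate 1 or 3 (adjusted p = 0.0749 to 0.0899), and the second when any 1 library was left out except wild-type replicate 1 (adjusted p = 0.0508 to 0.102). COL23A1, the highest transmembrane collagen per length, stood at 75.3 ± 2.84 CPM in homozygous and 83.3 ± 5.10 CPM in wild-type cells and was not called.

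Of the 10 laminin chains tested, LAMC3, LAMA2 and LAMA4 fell in homozygous cells and none rose. LAMC3 encodes a γ chain (chr9:131009082-131094473). It had 46.8, 47.3 and 36.8 CPM in homozygous, 42.3, 44.6 and 34.0 CPM in heterozygous and 79.4, 63.9 and 67.1 CPM in wild-type libraries. The mutant genotypes overlapped and both lay below the wild type. LAMC3 fell in homozygous cells (log2 fold change -0.69, SE 0.13, edgeR adjusted p = 0.00602) and in heterozygous cells (-0.80, SE 0.13, edgeR adjusted p = 0.00579), and both calls held with each library left out in turn.

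LAMA2, the α chain of muscle basement membrane, had 5.18, 3.47 and 3.54 CPM in homozygous, 5.82, 6.35 and 6.23 CPM in heterozygous and 6.59, 7.60 and 6.51 CPM in wild-type libraries. The genotypes did not overlap. Its fall in homozygous cells (log2 fold change -0.80, SE 0.17, edgeR adjusted p = 0.0140) was lost without wild-type replicate 2 or homozygous replicate 2 (adjusted p = 0.0665 to 0.0789). LAMA4, the α chain typical of vessel walls, had 0.752, 1.22 and 0.697 CPM in homozygous, 1.24, 2.12 and 1.44 CPM in heterozygous and 2.76, 2.29 and 1.70 CPM in wild-type libraries. It fell in homozygous cells (log2 fold change -1.29, SE 0.32, edgeR adjusted p = 0.0261), which was lost without wild-type replicate 1 or 2 or homozygous replicate 1 or 3 (adjusted p = 0.0536 to 0.0930). Of 5 endothelial markers 3 were tested, and 1 was called in homozygous against wild-type cells, where 7.68% of all genes tested were called. TEK fell in homozygous cells (log2 fold change -1.69, edgeR adjusted p = 0.00471), with 2.67, 1.16 and 2.64 CPM in homozygous and 5.36, 6.59 and 8.13 CPM in wild-type libraries. VWF, the most abundant of the list, averaged 578 CPM in homozygous and 442 CPM in wild-type cells, with every homozygous library above the wild-type ones, and was not called (0.39, edgeR adjusted p = 0.0770), nor was CDH5 (-0.35, edgeR adjusted p = 0.443). PECAM1 and TIE1 were under 0.5 CPM in every library, and the list summed to 515 to 623 CPM in homozygous, 391 to 573 CPM in heterozygous and 437 to 476 CPM in wild-type libraries. The part of endothelial cells in the level of LAMA4 was not tested. LAMB1, the highest chain per length, was not called and stood at 158 ± 11.3 CPM in homozygous and 175 ± 2.54 CPM in wild-type cells (SD, n = 3 each).

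None of the 4 microfibril and elastic fibre genes was called in homozygous cells by edgeR or limma-voom, though 3 had an unadjusted p below 0.05 and DESeq2 called 2. Among all 16837 genes tested 3906 had an unadjusted edgeR p below 0.05 in that comparison with wild type, and DESeq2 called 1761. FBN1 and FBN2 encode fibrillins, the backbone of microfibrils. FBN1 had 59.3, 48.0 and 74.1 CPM in homozygous and 41.9, 46.5 and 44.6 CPM in wild-type libraries, and FBN2 had 119, 93.4 and 146 CPM in homozygous and 159, 171 and 163 CPM in wild-type libraries. Their log2 differences of 0.45 (SE 0.13, edgeR adjusted p = 0.0652) and -0.46 (SE 0.14, edgeR adjusted p = 0.0672) both missed the threshold, although homozygous and wild-type libraries did not overlap for either gene. Both were chosen here after their values were seen. FBLN1, the fibulin that binds fibronectin and the highest of the group per length, stood at 716 ± 59.3 CPM in homozygous and 615 ± 49.2 CPM in wild-type cells (edgeR adjusted p = 0.189). The proteoglycan gene VCAN, which encodes versican, stood at 78.7 ± 11.5 CPM in homozygous and 86.2 ± 4.04 CPM in wild-type cells and was not called.

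**Figure D4:**
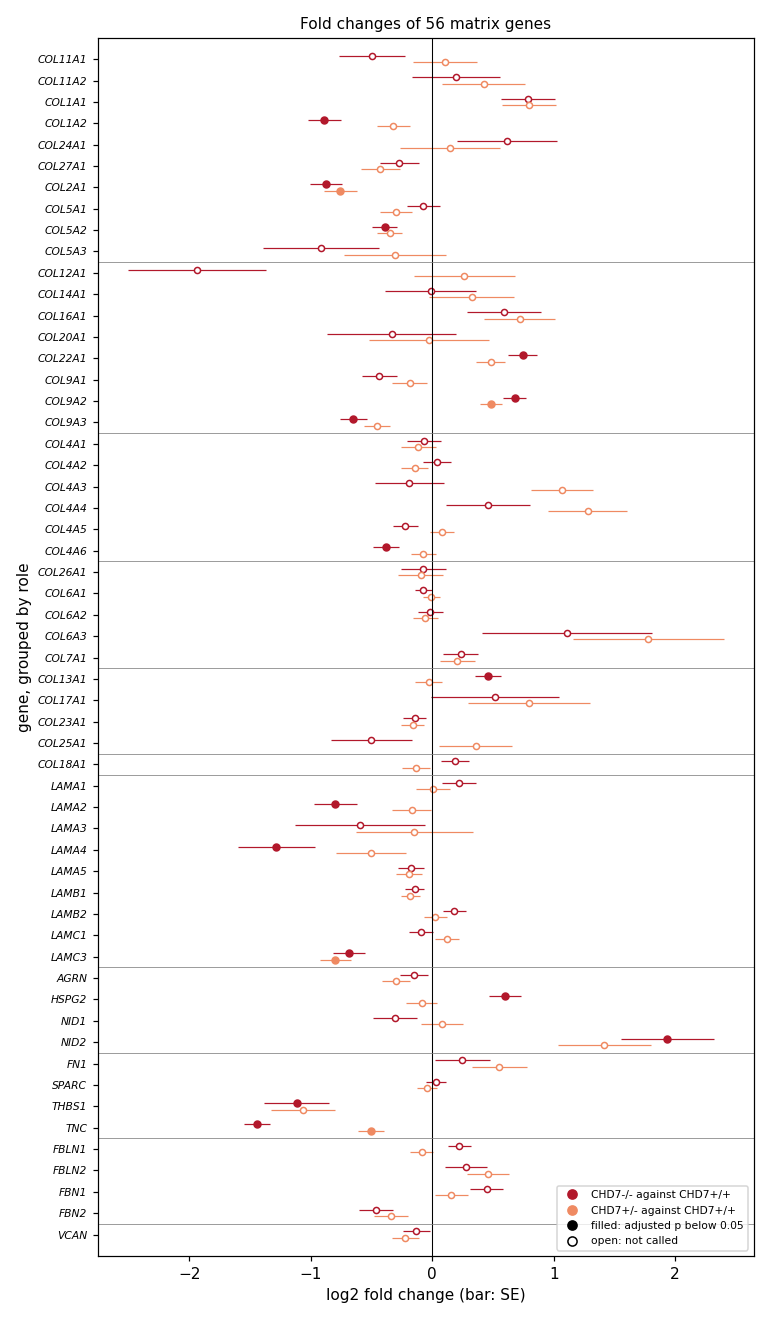
Log2 fold change with its SE (bar) of 56 of the 57 matrix genes tested, homozygous against wild-type (red) and heterozygous against wild-type cells (orange), by role; filled points passed an adjusted p of 0.05 and a value above 0 means higher in the mutant. The filled points are 15 for homozygous and 4 for heterozygous cells, and both comparisons share the wild-type libraries.

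Some chains are built into 1 molecule as partners. The ratio of the counts of such genes, and of related genes, was also taken in each library, which needs no scaling between libraries. FBN1 with FBN2, HSPG2 with AGRN, and LAMA1 with LAMA5, LAMB2 with LAMB1 and LAMC3 with LAMC1 were paired as related genes, not as partner chains. 14 pairs of partner or related genes were chosen with earlier results known, so the ratios are given without a test, and 3 libraries against 3 could not give an exact permutation p below 0.1. Homozygous libraries all lay above wild-type libraries in 8 pairs and all below in 1. Of all single genes tested 28.9% showed such a separation, but no such share was taken for ratios. Whether the pairs separate more often than other ratios was therefore not tested. The direction depends on which gene was put on top, and some genes enter more than 1 pair. The ratio of FBN1 to FBN2 was 0.497, 0.514 and 0.507 in homozygous, 0.380, 0.362 and 0.405 in heterozygous and 0.264, 0.271 and 0.273 in wild-type libraries. The spread within each genotype was small beside the gaps between them, and homozygous replicate 3, the highest homozygous library for each gene by itself, lay between the other 2. The ratio of COL9A2 to COL9A3 was 2.57, 2.87 and 2.85 in homozygous, 1.97, 2.02 and 2.44 in heterozygous and 0.982, 1.20 and 1.14 in wild-type libraries. That of HSPG2 to AGRN was 2.54, 2.31 and 2.52 in homozygous, 1.52, 1.72 and 1.89 in heterozygous and 1.49, 1.47 and 1.43 in wild-type libraries. In these 3 of the 14 pairs all genotypes stood apart in the order of the number of intact CHD7 copies. Of all single genes tested 1.06% stepped up and 1.19% stepped down in this way, and no share was taken for ratios. For HSPG2 to AGRN the lowest heterozygous ratio, 1.52, was close to the highest wild-type ratio, 1.49.

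For type I collagen the ratio of COL1A1 to COL1A2 was 1.78, 1.64 and 1.10 in homozygous, 0.928, 0.951 and 1.28 in heterozygous and 0.689, 0.352 and 0.380 in wild-type libraries. Mutant libraries all lay above wild-type ones, but homozygous and heterozygous libraries overlapped. LAMC3 relative to LAMC1 was lower in both mutants, at 0.444, 0.591 and 0.402 in homozygous, 0.413, 0.380 and 0.336 in heterozygous and 0.823, 0.654 and 0.666 in wild-type libraries. The ratios of COL9A2 to COL9A1 and of COL4A5 to COL4A6 also lay above the wild-type libraries in both mutants, those of LAMA1 to LAMA5 and LAMB2 to LAMB1 in homozygous libraries, and that of LAMB1 to LAMC1 lay below them in heterozygous libraries. COL5A1 to COL5A2, COL4A1 to COL4A2, COL4A3 to COL4A4 and COL6A1 to COL6A2 overlapped between all genotypes. COL4A1 and COL4A2, the pair with the shared interval printed above, overlap by 1422 bases on opposite strands in the GENCODE annotation, whose gene bounds differ from those of RefSeq, so that some of their reads may not be separated. Their ratio was 1.57 ± 0.178 in homozygous, 1.76 ± 0.1996 in heterozygous and 1.71 ± 0.0396 in wild-type cells (SD, n = 3 each). COL6A1 to COL6A2 was 1.95 ± 0.209 in homozygous, 2.12 ± 0.2904 in heterozygous and 2.02 ± 0.143 in wild-type cells (SD, n = 3 each).

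**Figure D5:**
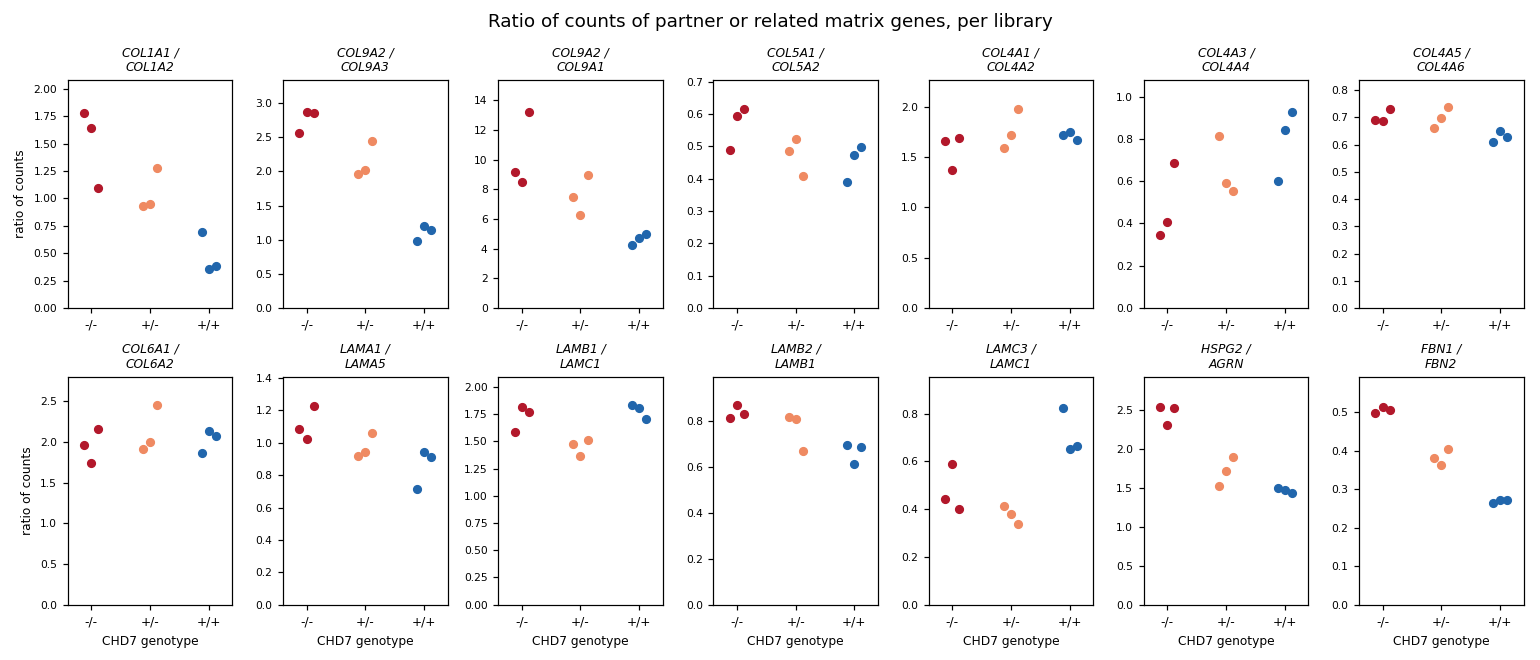
Ratio of the counts of 14 pairs of partner or related matrix genes (linear axis from 0), with a point per library for CHD7-/-, CHD7+/- and CHD7+/+ cells. FBN1 to FBN2 separates the genotypes, at 0.497 to 0.514 in homozygous, 0.362 to 0.405 in heterozygous and 0.264 to 0.273 in wild-type libraries, whereas COL4A1 to COL4A2 and COL6A1 to COL6A2 overlap.

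Between heterozygous and wild-type cells 4 of the 57 matrix genes were called, with COL9A2 rising and TNC, COL2A1 and LAMC3 falling, which is 7.02% against 1.86% of all genes tested (0.82% rose and 1.04% fell). All 4 were also called in homozygous cells, and both comparisons share the wild-type libraries. The median log2 fold change of the 57 was -0.05, against 0.0037 over all genes. This count moved with the processing, since DESeq2 called 10 and a fit of the 6 libraries alone called 11. Leaving out a library gave 1 to 11, with 1 called without wild-type replicate 2 or 3 and 11 without homozygous replicate 3. Between homozygous and heterozygous cells 4 of the 57 were called (7.02%, against 2.21% of all genes tested, where 0.986% rose and 1.22% fell). HSPG2 and COL13A1 were higher and TNC and COL4A3 lower in homozygous cells. Without wild-type replicate 3, heterozygous replicate 2 or homozygous replicate 2, 2 were called, and without heterozygous replicate 1, 1. Over all genes 372 were called with every library, and 141 to 377 with a library left out. Over all 3 genotypes 3 matrix genes, TNC, COL1A2 and LAMA2, stepped down without overlap in the order wild type, heterozygous, homozygous, where 1.19% of all genes tested did so. COL22A1 stepped up, as 1.06% of all genes tested did.

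The enzymes and helpers that make and cross-link collagen were followed as a list of 35 genes, 31 of them tested. In homozygous against wild-type cells 1 rose and 4 fell (16.1% called, against 7.68% of all genes tested), with a median log2 fold change of -0.10. LOX, the lysyl oxidase that cross-links collagen and elastin, had 1.09, 1.39 and 1.35 CPM in homozygous, 6.67, 7.05 and 6.73 CPM in heterozygous and 15.3, 9.18 and 8.34 CPM in wild-type libraries. It fell against wild type (log2 fold change -3.07, SE 0.25, edgeR adjusted p = 1.37e-05) and against heterozygous cells (-2.38, SE 0.26, edgeR adjusted p = 0.000220). COLGALT2, which adds galactose to collagen, fell by 0.90 on the log2 scale (SE 0.22), and TMEM38B, an ion channel of the endoplasmic reticulum needed for collagen processing in bone, fell by 0.86 (SE 0.18). PCOLCE2, an enhancer of procollagen trimming, rose by 0.52 (SE 0.13), and P4HA2, a subunit of prolyl hydroxylase, was the other gene to fall, named after its values were seen. COLGALT2 lost its call without wild-type replicate 2 or 3 or homozygous replicate 1 or 2 (adjusted p = 0.0706 to 0.0977), and PCOLCE2 without any wild-type library or homozygous replicate 2 (adjusted p = 0.0833 to 0.112).

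In heterozygous against wild-type cells edgeR and limma-voom called 0 of these genes, although 6 had an unadjusted p below 0.05 and DESeq2 called 2. Among all 16837 genes tested 2274 had an unadjusted edgeR p below 0.05 there, and DESeq2 called 574. Between homozygous and heterozygous cells PLOD2, a lysyl hydroxylase, fell with LOX (log2 fold change -0.66, SE 0.13), and LOXL1, a relative of LOX, rose (0.49, SE 0.11). PLOD2 was lost without heterozygous replicate 2 or 3 or homozygous replicate 2 (adjusted p = 0.0551 to 0.0624). LOXL1 was lost when any 1 library was left out except homozygous replicate 1 (adjusted p = 0.0563 to 0.139).

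Of 34 matrix receptors 31 were tested, and in homozygous against wild-type cells 4 fell and none rose (12.9% called, against 7.68% of all genes tested, of which 4.18% fell), with a median log2 fold change of -0.08. ITGAV, the αv integrin chain that binds fibronectin and vitronectin, had 112, 75.1 and 131 CPM in homozygous, 142, 162 and 177 CPM in heterozygous and 196, 186.2 and 166 CPM in wild-type libraries (log2 fold change -0.79, SE 0.16, edgeR adjusted p = 0.00965). ITGB8 (-1.02, SE 0.17) and ITGB3 (-0.85, SE 0.23), genes of β chains that can pair with it, also fell. The other β chain genes of the list, ITGB1, ITGB4, ITGB5, ITGB6 and ITGB7, were not called in that comparison. The glypican GPC6 (-0.84, SE 0.13), a cell-surface heparan sulfate proteoglycan, was the remaining gene to fall. The call of ITGB3 was lost when any 1 of 7 libraries was left out, all but heterozygous replicate 3 and homozygous replicate 3 (adjusted p = 0.0578 to 0.134). The calls of ITGAV, ITGB8 and GPC6 held with each library left out in turn. None was called by edgeR, DESeq2 or limma-voom in heterozygous against wild-type cells, where 5 had an unadjusted p below 0.05. Among all 16837 genes tested 2274 had an unadjusted edgeR p below 0.05 there. EdgeR called 313 of them, DESeq2 574 and limma-voom 334. Against heterozygous cells ITGA3, a laminin receptor chain, was lower in homozygous cells (-0.86, SE 0.19, edgeR adjusted p = 0.0366), which was lost without wild-type replicate 3, any heterozygous library or homozygous replicate 1 or 2 (adjusted p = 0.0538 to 0.137).

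Of 38 genes of matrix breakdown and its inhibitors 35 were tested, and 3 rose and 3 fell in homozygous against wild-type cells (17.1% called, against 7.68% of all genes tested, of which 3.5% rose and 4.18% fell), with a median log2 fold change of -0.03. ADAMTS5, a protease that cleaves aggrecan and versican, had 1.59, 1.26 and 2.54 CPM in homozygous, 3.48, 3.58 and 2.84 CPM in heterozygous and 5.84, 7.31 and 7.22 CPM in wild-type libraries. It fell in homozygous cells (log2 fold change -1.93, SE 0.24, edgeR adjusted p = 0.000318) and in heterozygous cells (-1.03, SE 0.22, edgeR adjusted p = 0.0326). ADAMTS12, a related protease, had 68.2, 56.2 and 59.4 CPM in homozygous, 43.4, 55.7 and 51.0 CPM in heterozygous and 36.9, 35.1 and 37.0 CPM in wild-type libraries, and rose in homozygous (0.75, SE 0.11, edgeR adjusted p = 0.000873) and heterozygous cells (0.46, SE 0.11, edgeR adjusted p = 0.0478). The genotypes did not overlap for either gene, though homozygous and heterozygous libraries lay close for ADAMTS12. Each heterozygous call was lost when any 1 of 5 libraries was left out, at adjusted p = 0.0880 to 0.170 for ADAMTS5 (wild-type replicates 2 and 3 and the 3 heterozygous ones) and 0.0926 to 0.252 for ADAMTS12 (the 3 wild-type ones and heterozygous replicates 2 and 3).

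PLAUR, the receptor of urokinase, rose in homozygous cells (log2 fold change 1.19, SE 0.27, edgeR adjusted p = 0.0156), and MMP24, a membrane-bound metalloproteinase, fell (-0.85, SE 0.20, edgeR adjusted p = 0.0215). Both calls were lost without wild-type replicate 2 or 3 or homozygous replicate 1 or 2, at adjusted p = 0.0518 to 0.0774 for PLAUR and 0.0662 to 0.0879 for MMP24. The remaining rise was that of MMP17 (0.73, SE 0.13) and the remaining fall that of ADAMTS1 (-0.51, SE 0.13), both named after their values were seen. Between homozygous and heterozygous cells edgeR and limma-voom called 0 genes of this list, where 12 had an unadjusted p below 0.05 and DESeq2 called 3. Among all 16837 genes tested 3077 had an unadjusted edgeR p below 0.05 in that comparison, and DESeq2 called 849.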

How the data were processed

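Total RNA of definitive endoderm from H9 cells was sequenced on an Illumina NovaSeq, per the labels. The authors deposited raw read counts per Ensembl gene, 1 column per library. FastQC, Trimmomatic, HISAT2, SAMtools, HTSeq and the build hg38 are named per the submitters' processing notes, without versions, and the sources used here do not give the annotation or strand setting. Symbols were found for 26234 of 26240 genes and GENCODE coordinates on hg38 for 25209. Besides the overlaps named above, other matrix genes also overlap genes on the opposite strand. Among them are LAMB1 (with DLD), LAMA5 (ADRM1), COL18A1 (SLC19A1), FBN2 (SLC27A6), HSPG2 (LDLRAD2) and THBS1 (FSIP1). The part of such overlaps in their levels and ratios was not tested.

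In R 4.3.3 with edgeR 4.0.16, filterByExpr left 16837 genes and removed 9403. The quasi-likelihood test was fitted to all 9 libraries with TMM factors (0.973 to 1.01) and genotype as the only factor, two-sided, with Benjamini-Hochberg adjustment over all genes tested, and a gene was called below 0.05. The biological coefficient of variation was 0.121. SEs of log2 fold changes were obtained from F, as the absolute change over the root of F. CPM are deposited counts over the TMM-scaled total, and RPKM divide them by the union of exons, which understates genes with many isoforms. The fit was tested first on simulated counts with 200 changed genes. Over the 3 comparisons it recovered 46.3% to 53.7% of 1.5-fold, 78.9% to 83.1% of 2-fold and 95.2% to 100% of 4-fold changes. Of its calls 4.27% were false for homozygous against wild-type cells and 7.88% for heterozygous against wild-type cells. For homozygous against heterozygous cells it was 4.52%. Replicates were compared by a chi-square over genes, whose value per degree of freedom was 2.55 for wild-type replicates 2 and 3 and 7.32 or more for other pairs of the same genotype, so none was merged. 20 alternatives were tried for each comparison, among them DESeq2 1.42.0 and limma-voom (limma 3.58.1), other scalings and filters, and leaving out each library.

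The matrix genes, the roles, the pairs and the lists around them were chosen with earlier results of these data known. Named with values are every called gene, TNC, COL1A2, the highest gene per length of each role, and up to 4 called genes per list and comparison with the largest fold change. Genes named after their values were seen are marked. Pseudogenes were left out. 1 matrix gene, which was not called in any comparison, is not reported here by itself and is left out of the figures, but it is part of the counts.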

Additional observations from a re-analysis of the deposited data

How the results depend on the processing

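The 41 called results for a named gene, over 820 refits, kept their direction throughout, and 634 of these refits kept the call. The 175 results not called, over 3455 refits, passed the threshold in 91. Of the matrix genes called between homozygous and wild-type cells (15), a test against a 1.5-fold change called 2, TNC and NID2, and leaving out a library gave 9 to 17. For heterozygous against wild-type cells (4), no filter on low counts gave 9, DESeq2 10, limma-voom 7, the 6 libraries alone 11, a test against a 1.5-fold change 0, and leaving out a library 1 to 11. For homozygous against heterozygous cells (4), the 6 libraries alone gave 2, a test against a 1.5-fold change 0, and leaving out a library 1 to 4. Wild-type replicates 2 and 3 were summed into 1 library as an alternative chosen after seeing the data. It called 11 matrix genes in homozygous against wild-type cells, 1 in heterozygous against wild-type cells and 2 in homozygous against heterozygous cells. The homozygous calls of THBS1, HSPG2, COL5A2 and COL4A6 against wild type were lost with it (edgeR adjusted p = 0.0615 to 0.119). Over all genes, homozygous against wild type (1293) gave 281 against a 1.5-fold change, 651 and 700 without wild-type replicate 2 or 3, 2118 without homozygous replicate 3, 858 with libraries thinned to the shallowest and 692 with the summed library. Heterozygous against wild type (313) gave 409 without a filter, 574 with DESeq2, 334 with limma-voom and 604 with the 6 libraries alone. It gave 89 against a 1.5-fold change, 130 to 624 without a library and 144 with the summed library. Homozygous against heterozygous (372) gave 177 with the 6 libraries alone and 67 against a 1.5-fold change. It gave 141 to 377 without a library and 229 with the summed library. With the replicate number as a block, the comparison of homozygous with wild-type cells called 17 matrix genes, that of heterozygous with wild-type cells 8 and that of homozygous with heterozygous cells 5. In the same order the block gave 1503, 492 and 461 over all genes. The numbers were not taken to pair the libraries, since the deviations of libraries with the same number correlated at -0.26 to 0.31 and heterozygous replicate 1 correlated best with homozygous replicate 2 (0.47). Thinning to the shallowest library ended the calls of NID2, COL4A3, COL4A6 and LAMA2 (adjusted p = 0.124, 0.236, 0.0563 and 0.172). The causes of these shifts were not tested.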

Other observations

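The chains of type VI collagen were uneven in all genotypes, an observation made after the values were seen. COL6A1 and COL6A2 stood at 163 and 83.4 RPKM in homozygous, 171 and 80.9 RPKM in heterozygous and 172 and 84.3 RPKM in wild-type cells. COL6A3, which encodes the third chain of the usual type VI molecule, had 0.585, 0.430 and 0.0996 CPM in homozygous, 0.585, 0.876 and 0.212 CPM in heterozygous and 0.161, 0.229 and 0.0830 CPM in wild-type libraries, or 0.0189 RPKM in homozygous, 0.0284 RPKM in heterozygous and 0.0080 RPKM in wild-type cells. COL6A5 and COL6A6, which encode alternatives to that chain, had at most 1 and 12 counts in any library. COL6A3 was called in no comparison (edgeR adjusted p = 0.216 to 0.565).

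The nidogen genes were also low beside the chains they bind. NID1 stood at 2.75 RPKM in homozygous, 3.56 RPKM in heterozygous and 3.36 RPKM in wild-type cells, and NID2 at 0.238 RPKM in homozygous, 0.160 RPKM in heterozygous and 0.0594 RPKM in wild-type cells, whereas LAMC1 stood at 11.0 RPKM in homozygous, 12.7 RPKM in heterozygous and 11.7 RPKM in wild-type cells.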
